A study of Mus musculus with 4 samples.

Results

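Cytosolic sulfotransferases transfer a sulfate group to small molecules, and 10 genes of this family were examined in mouse liver: Sult1a1, Sult1b1, Sult1d1, Sult1e1, Sult2a1, Sult2a2, Sult2a4, Sult2a8, Sult3a1 and Sult5a1. All 14 array probes whose transcript accession maps to 1 of these symbols were taken, of 56605 probes for the whole array, and the genes are 10 of 23462 with a matched symbol. The genes had been chosen with measured values of these same 4 arrays in view, so their differences are given as a description and no result is read as a test of the family. The 11 other sulfotransferase genes on the array, with 12 probes, are given beside them.

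RNA from the whole liver of fasted males was labelled with Cy5 and put on 4 expression arrays, with 1 array in each of 4 groups. The first array held RNA of natural aging mice that received no drug, and the second RNA of aging diabetic mice. The third came from aging diabetic mice treated with metformin, a biguanide that lowers blood glucose. The fourth came from aging diabetic mice treated with metformin and astragalus polysaccharide (APS), a polysaccharide preparation of a medicinal plant root. The titles carry 60 d, whose meaning is not stated, and the labels used here give no strain, age, dose or way of making the mice diabetic. They do not say whether 1 mouse or a pool gave each RNA. With 1 array per group there is no spread between animals and no test, and "higher" and "lower" describe these arrays only. By its title, the series is about liver mRNA in aging mice with type 2 diabetes and about what combined treatment does to it.

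Sulfation makes phenols, steroids, bile acids and drugs more water-soluble and usually less active, and it draws on PAPS, the activated form of sulfate that the PAPS synthases make. The Sult1 enzymes act mainly on phenols, thyroid hormones, catecholamines and estrogens, and the Sult2 enzymes on hydroxysteroids such as dehydroepiandrosterone and on bile acids. In mouse liver several of these genes differ between the sexes, and Sult2a1 and Sult3a1 are known for higher levels in females. The mouse genome holds a row of closely related Sult2a copies side by side on chromosome 7.

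Several Sult2a copies share much of the sequence just before their starts. Stretches of it are shown for Sult2a3, Sult2a4, Sult2a5 and Sult2a6, which were all lowest on the natural aging array, and for Sult2a8, which was highest there; Sult3a1 is shown as the gene detected with treatment only. The RefSeq promoter table (build GRCm38.p6) held 8 of the 10 genes; Sult2a1 and Sult2a2 were not in it. Each stretch below is 160 bases long, 5′ to 3′ on the gene's strand. Capitals mark TCATGAAC, the core of an inverted repeat known as a receptor-binding element of rodent Sult2a promoters, GTTAAT, a short motif found in several of the windows, and, in Sult3a1, TTCNNNGAA, the general form of a STAT site.
Sult2a5 (chr7:13623798-13623957, plus strand): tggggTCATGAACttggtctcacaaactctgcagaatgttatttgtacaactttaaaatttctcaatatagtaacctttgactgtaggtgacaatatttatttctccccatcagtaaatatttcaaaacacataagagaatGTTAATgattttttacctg
Sult2a4 (chr7:13989677-13989836, minus strand): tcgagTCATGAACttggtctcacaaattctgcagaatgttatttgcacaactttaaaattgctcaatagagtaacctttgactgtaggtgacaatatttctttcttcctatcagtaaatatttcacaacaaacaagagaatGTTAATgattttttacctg
Sult2a3 (chr7:14123081-14123240, minus strand): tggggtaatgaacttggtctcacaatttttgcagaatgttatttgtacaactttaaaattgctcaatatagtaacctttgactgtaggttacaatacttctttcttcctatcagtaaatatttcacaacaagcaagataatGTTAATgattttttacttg
Sult2a6 (chr7:14254924-14255083, minus strand): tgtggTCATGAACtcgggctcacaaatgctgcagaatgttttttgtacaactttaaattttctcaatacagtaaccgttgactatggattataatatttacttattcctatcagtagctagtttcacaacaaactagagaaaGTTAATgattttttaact
Sult2a8 (chr7:14446588-14446747, minus strand): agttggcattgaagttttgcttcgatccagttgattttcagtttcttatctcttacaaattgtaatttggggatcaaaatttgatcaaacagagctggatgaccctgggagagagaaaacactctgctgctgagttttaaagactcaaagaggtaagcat
Sult3a1 (chr10:33857562-33857721, plus strand): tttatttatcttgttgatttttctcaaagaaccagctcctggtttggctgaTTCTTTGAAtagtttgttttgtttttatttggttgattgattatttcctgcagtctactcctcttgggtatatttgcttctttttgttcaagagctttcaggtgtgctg

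In a local alignment of the 250 bases before the starts, Sult2a4 was 91.8% identical to Sult2a3 over 194 aligned positions and 92.2% to Sult2a5 over 167. Identity was 83.9% to Sult2a6 over 205 positions, and 64.1% to Sult2a8 over 64 positions only. TCATGAAC lay in the windows of Sult2a5, Sult2a4 and Sult2a6, with its first base at -164, -243 and -208, and it was not found in the windows of Sult2a3 and Sult2a8. GTTAAT was in the windows of Sult2a5, Sult2a4, Sult2a3 and Sult2a6, and also in those of Sult1a1, Sult1d1 and Sult3a2. TTCNNNGAA was in the window of Sult3a1 and not in that of Sult3a2, a gene that was also detected on the treated arrays only. Of 32851 windows of that length in the table, 0.496% held TCATGAAC, 6.43% held GTTAAT and 7.02% held TTCNNNGAA on either strand. The search covered 12 motifs on both strands, of which these 3 are marked because they had been seen to match. Of the other motifs, TCATGA, which lies inside TCATGAAC, was in 4.61% of windows and AGGTCA was found in 14% of them. The share was 11.8% for the letters AGTTCA and 12.4% for a TATAAA box, and CACGTG was matched in 6.02% of windows. Another 4 forms of one short pattern were searched, with ATCAAT in 6.72% of windows, then the form ATCTAT in 6.25% of windows, the form GTCAAT in 5.49% of windows and the form GTCTAT in 5.47% of windows. AGTTCA overlaps TCATGAAC on the reverse strand in Sult2a4, Sult2a5 and Sult2a6. Sult2a3 holds AGTTCA on the reverse strand at the matching place, -184, and lacks only the full TCATGAAC. AGTTCA was also in windows of Sult1b1, Sult1d1 and Sult6b2. Sult2a8 has 2 listed starts, and both the stretch shown and the alignment are of the first. The sequence before the second was searched for motifs but not aligned. A match is a match of letters and does not show that a factor binds.

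Levels are the log2 of the spot intensity relative to the 75th percentile of the array, so 0 stands for that percentile. A spot counts as detected when the image analysis called it well above background, and the lowest such level, array by array, was -4.52 (natural aging), -4.75 (aging diabetic), -4.95 (metformin) and -4.84 (APS plus metformin). Of the 14 probes, 9 were detected on all 4 arrays, and 6 of the 10 genes had such a probe. The image analysis error of a bright spot was near 0.115 log2, and of a difference near 0.163; both cover measurement and not animals. In 8 of 56 spots of the family the image analysis flagged uneven pixels. These fell on 4 probes of Sult1d1, Sult1e1 and Sult2a1, and values from such spots are named as flagged and left out of the counts. Levels of different probes are not set against each other, since probes differ in brightness for the same amount of RNA.

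**Figure D1:**
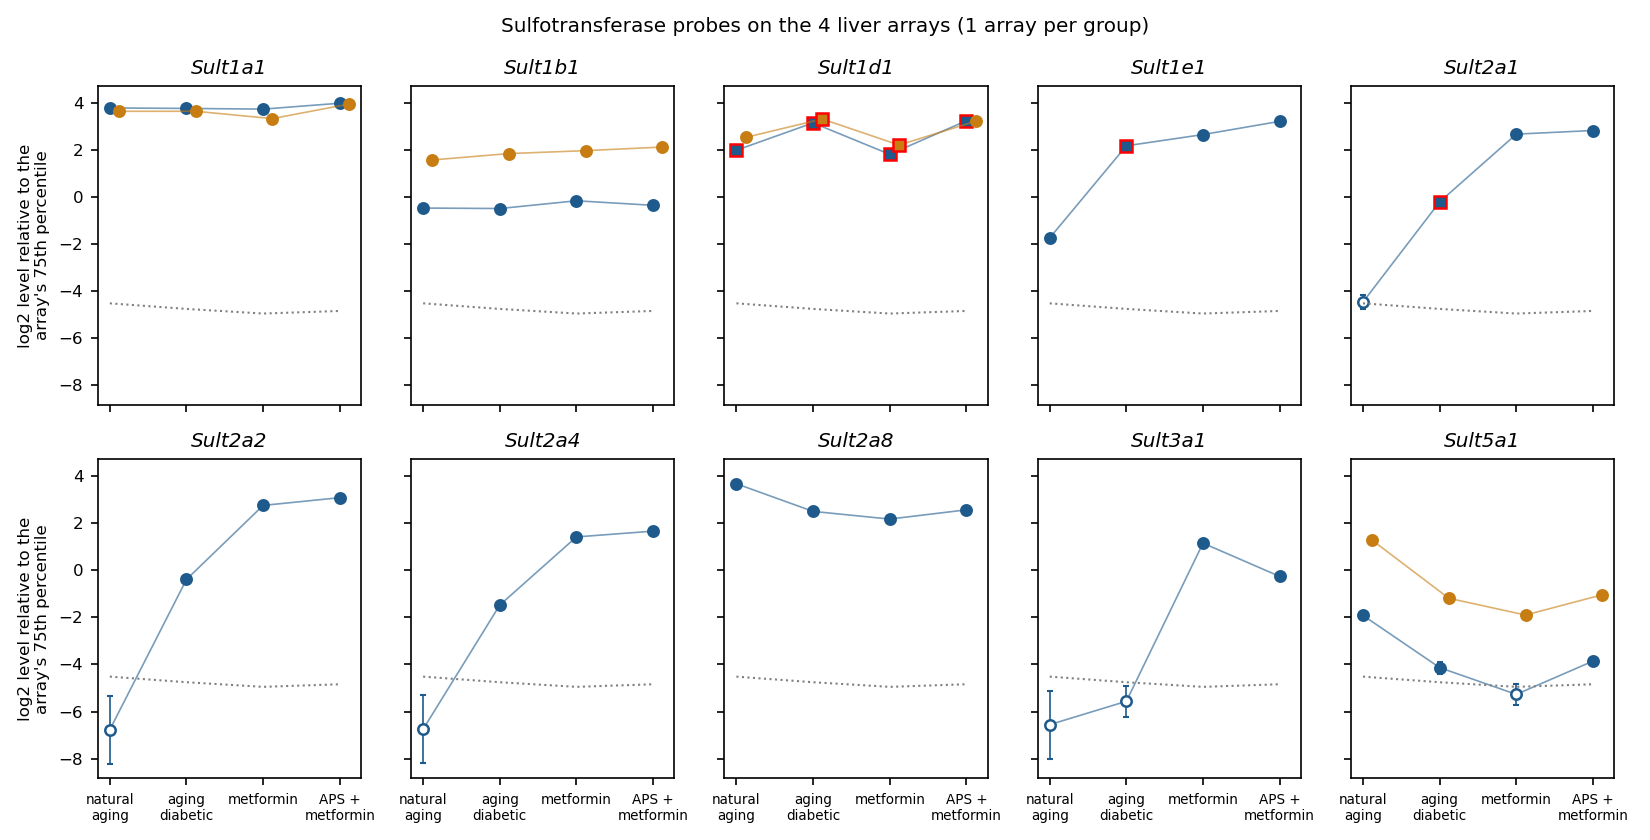
Level of each probe of the 10 genes (vertical axis, log2 relative to the 75th percentile of the array) on the 4 arrays, 1 array per group; where a gene has 2 probes they are drawn in blue and orange. Filled symbols are well above background and open ones are not, squares with a red edge are flagged spots, bars are the image analysis error, and the dotted line is the lowest level well above background. The probes of Sult2a1, Sult2a2 and Sult2a4 are open on the natural aging array and lie between 1.42 and 3.09 on both treated arrays, while Sult2a8 and Sult5a1 are highest on the natural aging array.

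Sult2a1, Sult2a2 and Sult2a4, which act on hydroxysteroids and bile acids, differed widely between the arrays. Sult2a2 was not detected on the natural aging array, with a level of -6.77, and stood at -0.39 in aging diabetic liver, 2.76 with metformin and 3.09 with APS plus metformin. In intensity units these were 24.7, 2349, 24329 and 29008. All 3 diabetic arrays were above the natural aging array, and both treated arrays were above the untreated diabetic one. The treated arrays differed from each other by 0.33, just over 2 image analysis errors.

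Sult2a4 followed the same order, at -6.75 (not detected), -1.47, 1.42 and 1.67. Sult2a1 gave -4.46 (not detected), a flagged -0.21, 2.67 and 2.83. For both genes the step between the treated arrays was within 2 errors, at 0.25 and 0.15. The probes of these 3 genes carry their own accessions, but the array files hold no probe sequences, and whether each probe separates its gene from the near-identical copies is not known.

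Against natural aging, the aging diabetic array was at least 17.5-fold higher for Sult2a2 and at least 8.24-fold higher for Sult2a4. These are bounds, since the natural aging signal was replaced by the lowest one that counts as detected there. The flagged spot of Sult2a1 would give at least 19.1-fold. Metformin was 8.86-fold above the aging diabetic array for Sult2a2 (log2 3.15, error 0.164) and 7.45-fold for Sult2a4 (2.90, error 0.167). APS plus metformin was 11.1-fold and 8.83-fold above it, in the same order. From the flagged diabetic spot, Sult2a1 would be 7.36-fold and 8.20-fold higher. Against natural aging, the metformin and the APS plus metformin arrays were, in that order, at least 155-fold and 195-fold higher for Sult2a2. The same bounds were 140-fold and 156-fold for Sult2a1, and 61.3-fold and 72.7-fold for Sult2a4.

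**Figure D2:**
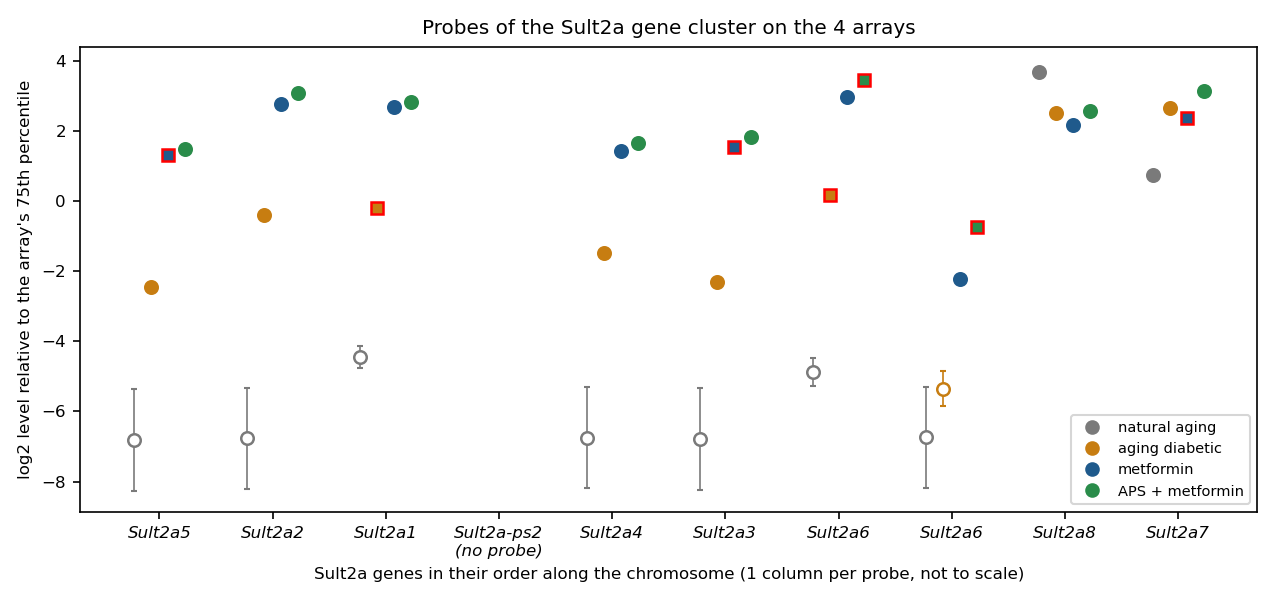
Level of every Sult2a probe (vertical axis, log2 relative to the 75th percentile of the array), with the genes in their order along chromosome 7 and not to scale; Sult2a6 has 2 probes and the pseudogene Sult2a-ps2 none. Colours are the 4 arrays, open circles are not well above background, red-edged squares are flagged spots and bars are the image analysis error. From Sult2a5 to Sult2a6 the natural aging point is the lowest and not detected for each probe, while Sult2a8 at 3.68 and Sult2a7 at 0.75 are detected there.

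The other Sult2a copies of the row, none of them among the 10 genes, were also lowest on the natural aging array. Sult2a3 was at -6.79 (not detected), -2.31, a flagged 1.55 and 1.84, and Sult2a5 at -6.81 (not detected), -2.46, a flagged 1.31 and 1.49. Both were higher on the aging diabetic than on the natural aging array, by at least 4.63-fold and at least 4.18-fold. APS plus metformin was 17.7-fold and 15.4-fold above aging diabetic. The first Sult2a6 probe read -4.88 (not detected), a flagged 0.17, 2.97 and a flagged 3.47, and the second -6.74 and -5.35 (both not detected), -2.22 and a flagged -0.73.

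At the end of the row, Sult2a8 ran the other way. Sult2a8, which sulfates bile acids, was at 3.68 in natural aging, 2.51 in aging diabetic liver, 2.18 with metformin and 2.57 with APS plus metformin. It was lower on all 3 diabetic arrays, by 2.26-fold, 2.83-fold and 2.16-fold, and the 3 did not differ from each other by more than 2 errors except metformin and APS plus metformin (0.39). Its difference between aging diabetic and natural aging (-1.17, error 0.163) was -0.92 under quantile normalisation and so under 2-fold, as was that of APS plus metformin against natural aging at -0.90. Sult2a7 was at 0.75, 2.66, a flagged 2.39 and 3.14, with aging diabetic 3.77-fold and APS plus metformin 5.26-fold above natural aging. It was lowest on the natural aging array like the first copies, but was detected there.

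Sult3a1, which sulfates amines, was detected on the treated arrays only. Its level was -6.56 on the natural aging and -5.57 on the aging diabetic array, both not well above background, 1.16 with metformin and -0.26 with APS plus metformin. Metformin was at least 60.2-fold and APS plus metformin at least 22.6-fold above the aging diabetic array. It was 2.66-fold lower with APS plus metformin than with metformin (log2 -1.41, error 0.164), and no other of the 10 genes had a probe at least 2-fold lower in that comparison. Its neighbour in the family, Sult3a2, was at -6.78, -5.81, 0.28 and -2.23, with the first pair not detected. Sult3a2 was at least 32.9-fold higher on the metformin than on the aging diabetic array and 5.73-fold lower with APS plus metformin than with metformin alone.

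Sult1e1, the estrogen sulfotransferase, inactivates estradiol and estrone. It was detected on all 4 arrays, at -1.74 on the natural aging array, a flagged 2.18 in aging diabetic liver, 2.66 with metformin and 3.22 with APS plus metformin. The intensities were 810, a flagged 13895, 22629 and 31710. The natural aging array stood far below the other three. Metformin was 21.0-fold and APS plus metformin 31.0-fold above natural aging, and the flagged diabetic spot would be 15.1-fold above it. Between the treated arrays, APS plus metformin was 1.48-fold higher (0.56, error 0.163). From the flagged diabetic spot, metformin would be 0.48 and APS plus metformin 1.04 log2 above aging diabetic.

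Sult5a1, a member whose substrates are little known, went the opposite way. Its brighter probe was at 1.28 in natural aging, -1.19 in aging diabetic liver, -1.90 with metformin and -1.04 with APS plus metformin. Its other probe was at -1.92, -4.13, -5.27 (not detected) and -3.86, in the same order of arrays. Aging diabetic was 5.53-fold lower than natural aging by the brighter probe (log2 -2.47, error 0.165), and the other probe gave -2.22. Metformin and APS plus metformin were 9.06-fold and 4.99-fold lower than natural aging. By the brighter probe, metformin against aging diabetic was -0.71 and APS plus metformin against metformin 0.86. The other probe gave a bound of -0.82 in the first and of 1.09, at least 2.13-fold higher, in the second, so the probes differ on whether Sult5a1 passed 2-fold between the treated arrays.

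The Sult1 enzymes of phenols, thyroid hormones and catecholamines differed little or not past 2-fold where spots were unflagged. Sult1a1, the main phenol sulfotransferase, was at 3.79, 3.77, 3.74 and 3.99 by one probe and at 3.65, 3.65, 3.34 and 3.95 by the other. No step between neighbours in the order of its levels passed 2 errors on either probe, though the ends of the second probe's order were 0.62 apart. Sult1b1, which sulfates thyroid hormones, was at 1.58, 1.85, 1.97 and 2.13 by its brighter probe and at -0.47, -0.49, -0.16 and -0.35 by its other one. The highest and lowest arrays were different ones for the 2 probes of Sult1b1.

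Sult1d1, which sulfates catecholamines, carried most of the flags of the family, with 6 of its 8 spots marked. Its first probe was at 2.54, a flagged 3.32, a flagged 2.21 and 3.22, and every spot of its second probe was flagged, at 1.99, 3.15, 1.82 and 3.24. Both probes were higher on the aging diabetic and the APS plus metformin arrays than on the other pair. The unflagged comparison, APS plus metformin against natural aging, gave 1.61-fold higher (0.68, error 0.163). From flagged spots, the difference of metformin from aging diabetic would be -1.11 and -1.34.

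Counted over the genes with unflagged spots, the aging diabetic array had 2 of 6 compared genes at least 2-fold above natural aging (Sult2a2 and Sult2a4), where 8.15% of 15036 genes were that much higher. It had 2 of 6 at least 2-fold lower (Sult2a8 and Sult5a1), where 6.01% of all compared genes were. The median of the 6 was 0.13 log2 against -0.04 over all genes. Sult1a1 at -0.02 and Sult1b1 at 0.27 made up the rest, and Sult3a1 was detected on neither array.

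Metformin against aging diabetic gave 3 of 7 genes higher (Sult2a2, Sult2a4 and Sult3a1), with 11.8% of 15812 genes higher, and 0 of 7 lower, with 3.5% lower. The other 4 were between -0.71 (Sult5a1) and 0.12 (Sult1b1). The median was 0.12, against -0.003 over all genes. APS plus metformin against aging diabetic gave the same 3 of 7 genes higher, with 4.38% of 15411 genes higher, and 0 of 7 lower, with 6.81% lower. The other 4 were between 0.07 (Sult2a8) and 0.28 (Sult1b1), and the median was 0.28 against 0.02 over all genes. Both of these comparisons share the aging diabetic array.

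Between the treated arrays, 9 genes had unflagged spots. By the brightest usable probe, none of them was at least 2-fold higher with APS plus metformin, where 2.31% of 16076 genes were (Sult5a1 passed by its other probe), and 1 of 9 was lower (Sult3a1), where 12.2% were. The remaining 8 all lay between 0.15 (Sult1b1 and Sult2a1) and 0.86 (Sult5a1), and the median was 0.25 against -0.02 over all genes. These shares describe genes that were chosen on the same arrays, so nothing is read from them.

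**Figure D3:**
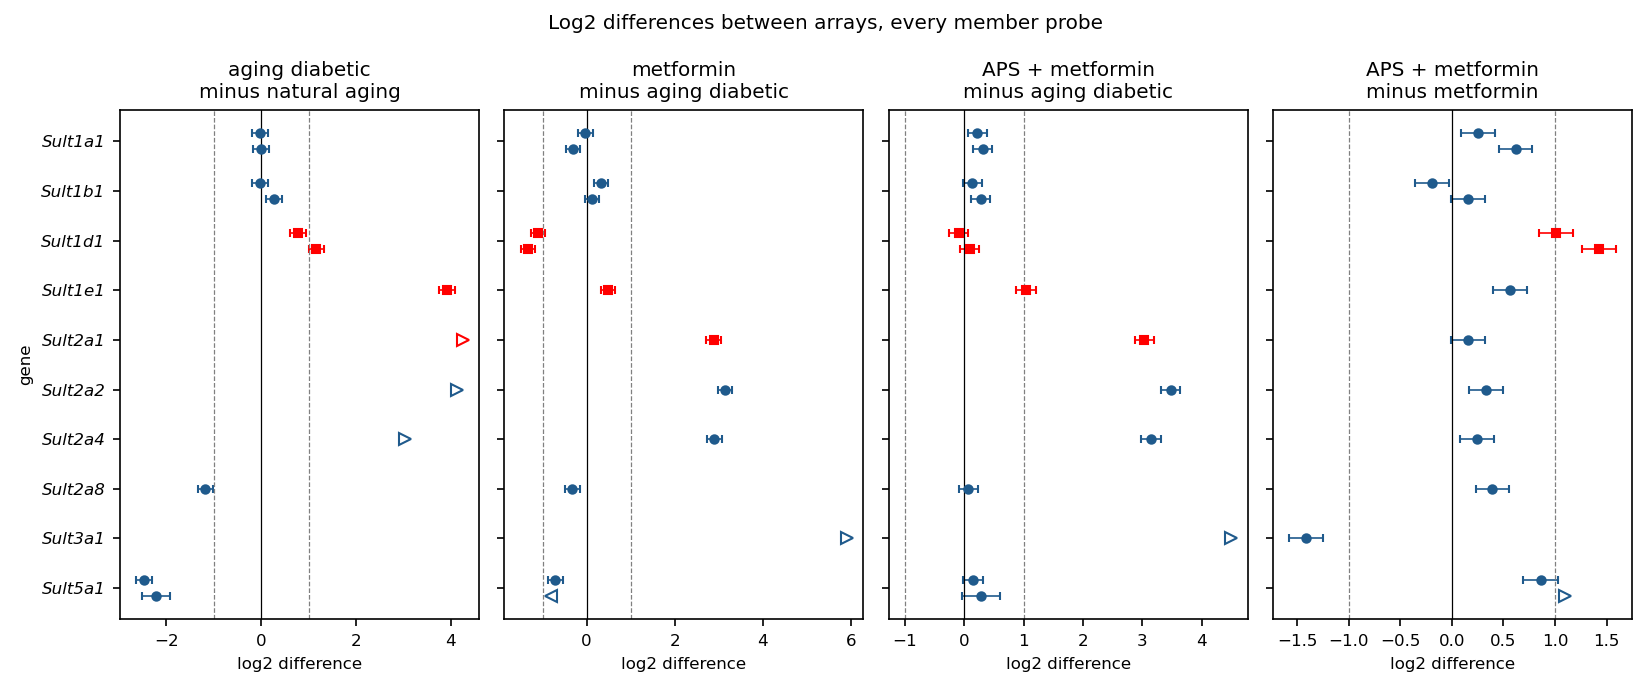
Log2 difference of every probe of the 10 genes in the 4 comparisons (horizontal axis; each panel has its own scale), with the image analysis error as bars. Red squares rest on a flagged spot, open triangles are bounds that point in the direction of the larger difference, and dashed lines mark 2-fold. Sult2a2 and Sult2a4 lie between 2.90 and 3.48 in both comparisons with the aging diabetic array, Sult5a1 is at -2.47 by its brighter probe in the first panel, and the fourth panel holds Sult3a1 past 2-fold to the left and, to the right, both flagged Sult1d1 probes and the dimmer Sult5a1 probe at a bound of 1.09.

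Of the 11 sulfotransferases outside the 10, 3 were detected in natural aging, 7 in aging diabetic liver, 10 with metformin and 8 with APS plus metformin. Of all 59305 spots, 33668, 34895, 37402 and 35743 were well above background on these arrays. The metformin array was thus highest and the natural aging array lowest over all spots too, and nothing is read from the counts. Those outside the Sult2a and Sult3a groups were mostly dim. Sult1c2 was detected on all 4 arrays at 0.77, 0.98, 0.72 and 0.34, and Sult1c1 at -3.73, -3.64, -3.60 and -3.27, with no difference past 2-fold in any comparison. Sult2b1, which sulfates cholesterol, was well above background on the metformin array only, at -3.46. Sult4a1, a family member mainly of brain, was detected on the aging diabetic array at -3.67 and the metformin array at -2.92. It was at least 2.25-fold lower with APS plus metformin than in aging diabetic and at least 3.80-fold lower than with metformin. Sult6b1 was detected on the metformin array only, at -3.87, and Sult6b2 on the APS plus metformin array only, at -4.71.

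Genes of the supply of sulfate and PAPS were counted in the same way. The list holds 16 genes of sulfate uptake, PAPS synthesis, PAPS handling and sulfur oxidation, of which 15 were on the array. In aging diabetic against natural aging, 0 of 13 compared were higher and 1 was lower; in metformin against aging diabetic 1 of 14 was higher and 0 lower. APS plus metformin against aging diabetic gave 0 of 13 in either direction, though Papss2 passed 2-fold upward by its dimmer probe. Against metformin, APS plus metformin gave 0 of 15 higher and 1 lower. All of these calls were Slc13a4, a sulfate transporter with low signal, at -2.46, -3.88, -1.76 and -3.61 on the 4 arrays. Its differences were -1.42, 2.11, 0.27 and -1.85. Of all genes, 8.15%, 11.8%, 4.38% and 2.31% were higher in the 4 comparisons. The shares lower were 6.01%, 3.5%, 6.81% and 12.2%. With a list this short, nothing is read from its counts.

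Papss2, the main PAPS synthase of liver, was at 2.95, 2.42, 2.59 and 3.04 by its brighter probe. Its difference was -0.53 between aging diabetic and natural aging. Against aging diabetic it was 0.17 with metformin and 0.62 with APS plus metformin. The counts use this brighter probe. Its other probe was at -1.71, -2.64, -1.97 and -1.005 on the 4 arrays. By that probe, APS plus metformin was more than 2-fold above aging diabetic, so the Papss2 probes differ on this. Papss1, the other synthase, was at 0.06, a flagged 0.18, -0.61 and -0.98, and so 2.06-fold lower with APS plus metformin than in natural aging. By the probe that stood for each gene, the next largest differences on the list stayed within 2-fold. In aging diabetic against natural aging they were Slc26a2, a sulfate transporter, at 0.65 and Sqor, an enzyme of sulfide oxidation, at -0.61. In metformin against aging diabetic they were Slc26a1, the sulfate and oxalate exchanger of hepatocytes, at -0.72 and the phosphatase Bpnt1 at -0.64. The Bpnt1 value is of its dimmer probe. Its brighter probe differed less, at a flagged 2.67 in aging diabetic liver and a flagged 2.49 with metformin. In APS plus metformin against aging diabetic, Slc35b3, a Golgi carrier of PAPS, was at 0.71 and Mpst, a sulfurtransferase, at -0.63.

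**Figure D4:**
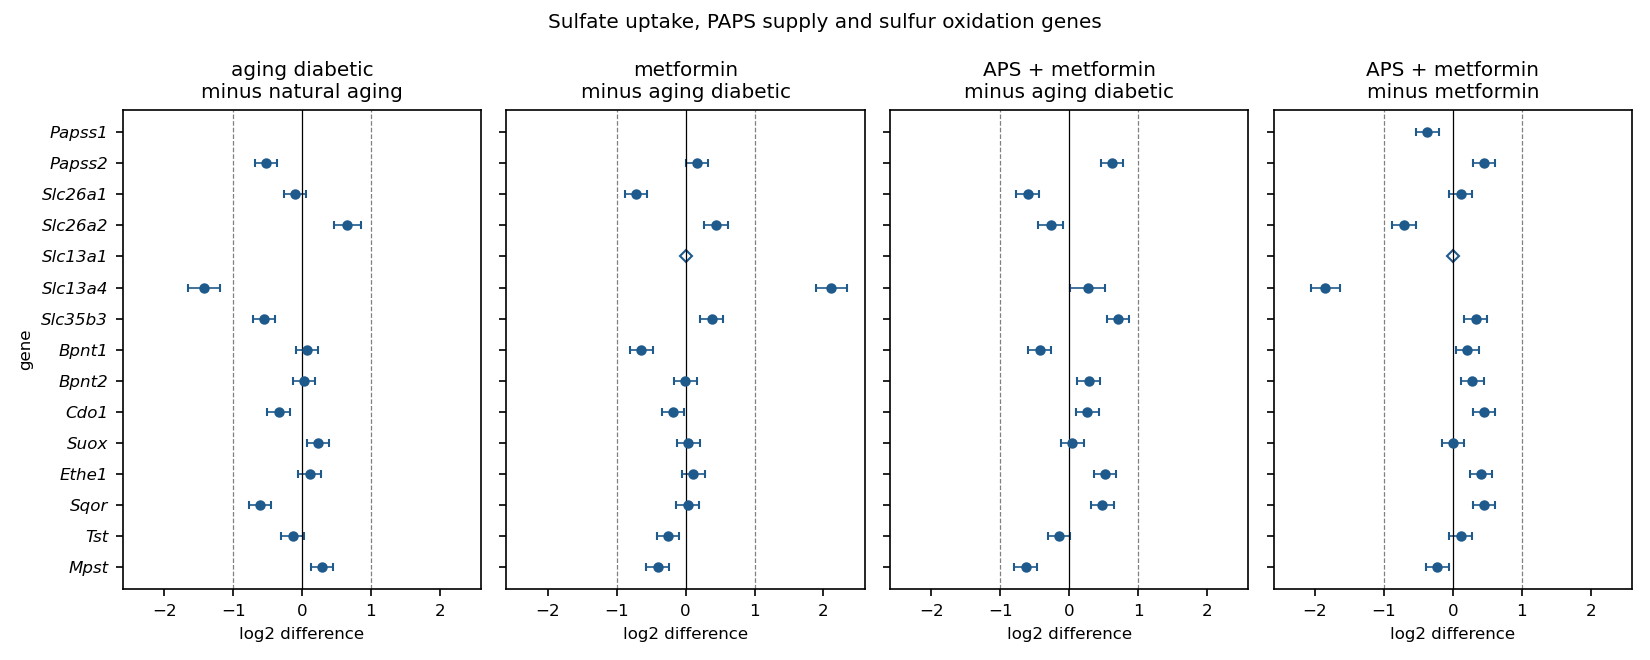
Log2 differences (horizontal axis, same scale in all panels) of the genes of sulfate uptake, PAPS supply and sulfur oxidation in the 4 comparisons, with the image analysis error as bars and dashed lines at 2-fold. A diamond at 0 marks a gene detected on 1 of the arrays with no bound above 0. A gene with no probe unflagged on both arrays, or detected on neither array, has no point. Where the brighter probe was flagged, another probe stands for the gene. Slc13a4 is the only gene outside the dashed lines, at -1.42, 2.11 and -1.85.

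Enzymes that remove sulfate or add it to proteins were compared as a list of 8, with 7 on the array. Aging diabetic against natural aging gave 1 of 6 higher (Sumf2, a homologue of the sulfatase activator, 1.03) and 1 lower (Arsb, arylsulfatase B, -1.12). In the same comparison Arsg, a lysosomal sulfatase, was at 0.85. Arsg was the only one past 2-fold in metformin against aging diabetic (-1.19, 1 of 5) and in APS plus metformin against aging diabetic (-1.89, 1 of 6). Arsb was at 0.68 and 0.48 in those comparisons. These Arsb values are of its brighter probe, and its other probe was at -3.57, -4.01, -3.62 and -4.37 on the 4 arrays. By that probe, aging diabetic was within 2-fold of natural aging, and APS plus metformin was slightly below aging diabetic. The probes differ on both points. None of 6 passed 2-fold between the treated arrays, where Arsg was at -0.70, Tpst2, a tyrosylprotein sulfotransferase, at -0.32 and Arsb at -0.21. Of all genes, 8.15%, 11.8%, 4.38% and 2.31% were higher in the 4 comparisons. The shares lower were 6.01%, 3.5%, 6.81% and 12.2%.

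A list of 17 nuclear receptors and related factors that are known to act on liver drug and steroid metabolism was compared as well. In aging diabetic against natural aging, 2 of 17 were higher and 0 lower, among them Cux2, a factor of female mouse liver, at 2.58, and Esr1, the estrogen receptor, was at -0.60. Metformin against aging diabetic gave 1 of 16 higher and 3 lower, among the latter Esr1 at -1.38 and Cux2 at -1.02. APS plus metformin against aging diabetic gave 0 of 17 higher and 2 lower, with Esr1 at -1.49. These Esr1 values are of a dimmer probe, since its brighter ones had flagged spots on the aging diabetic array. The brightest was at 1.71, a flagged 1.15, a flagged 0.47 and 0.39. The next was at a flagged 1.51, a flagged 0.80, a flagged 0.14 and 0.33. From either of them, each of these Esr1 differences would be within 2-fold. A still dimmer probe was at -2.45 in natural aging and not detected on the other arrays. By that probe, aging diabetic was more than 2-fold below natural aging, so the Esr1 probes differ there too. Another was detected only in natural aging, at -3.99, and with APS plus metformin, at -4.74. Between the treated arrays 1 of 16 was higher, Cux2 at 1.58, and 1 was lower. Of all genes, 8.15%, 11.8%, 4.38% and 2.31% were higher in the 4 comparisons. The shares lower were 6.01%, 3.5%, 6.81% and 12.2%. Nr1i3, the xenobiotic receptor CAR, differed by -0.04, 0.01, 0.61 and 0.60 in the 4 comparisons by its brighter probe, which the counts use. Its other probe was at 0.65, 0.59, 0.63 and 1.97 on the 4 arrays. By that probe, APS plus metformin was more than 2-fold above both aging diabetic and metformin, so the probes differ on this. Nr1i2, the receptor PXR, differed by 0.03, 0.02, 0.23 and 0.21.

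Genes with a known sex difference in mouse liver were counted too, since several sulfotransferases belong to that pattern. Of the female-biased genes, 8 of 15 were at least 2-fold higher in aging diabetic than in natural aging and 0 lower. Among them were Cyp17a1, a steroid hydroxylase, at 5.26, Cyp4a14, a fatty acid hydroxylase, at 4.75, Slc22a27, an anion transporter, at 3.87, Cux2 at 2.58, Cyp2b13 at 1.68 and Fmo2 at 1.28, with A1bg at a bound of 1.40. Of all genes in that comparison, 8.15% were higher and 6.01% lower.

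Metformin against aging diabetic gave 3 of 13 female-biased genes higher, among them Hao2, a hydroxyacid oxidase, at 4.14 and A1bg at 2.37, and 2 lower, Cyp17a1 at -1.04 and Cux2 at -1.02. APS plus metformin against aging diabetic gave 4 of 15 higher, among them Fmo2 at 1.45, A1bg at 1.09 and Cyp3a44 at 1.05, and 0 lower. Between the treated arrays 3 of 14 were higher with APS plus metformin (Cux2 at 1.58, Cyp17a1 at 1.24 and Fmo2 at 1.19) and 3 lower (Hao2 at -3.45, Slc22a27 at -1.48 and A1bg at -1.28). Of all genes, 11.8%, 4.38% and 2.31% were higher in these comparisons, in that order. The shares lower were 3.5%, 6.81% and 12.2%.

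Of the male-biased genes, 1 of 8 was higher in aging diabetic than in natural aging (Susd4 at 1.88) and 4 were lower. Hsd3b5, which acts on steroids in male liver, was at 2.72 in natural aging and not detected in aging diabetic liver, and Slco1a1, an organic anion transporter, was at -4.88. Elovl3, a fatty acid elongase, was at -3.19 and Cyp7b1, an oxysterol hydroxylase, at -1.09. Metformin against aging diabetic gave 2 of 9 higher (Elovl3 at 1.01 and Hsd3b5 at a bound of 1.28) and 1 lower (Cyp2u1 at -1.15). APS plus metformin against aging diabetic gave 0 of 8 higher and 4 lower, with Susd4 at -2.66, Cyp4a12a at -1.28, Cyp2u1 at -1.09 and Elovl3 at -1.06. Between the treated arrays 0 of 12 were higher and 6 lower, with Susd4 at -2.54, Elovl3 at -2.07, Cyp4a12b at -1.99, Cyp4a12a at -1.62, Slco1a1 at -1.13 and Hsd3b5 at a bound of -1.37. Of all genes, 8.15%, 11.8%, 4.38% and 2.31% were higher in the 4 comparisons. The shares lower were 6.01%, 3.5%, 6.81% and 12.2%. The female-biased and male-biased lists were compiled with earlier results of these arrays known, and the female-biased list shares Cux2 with the receptor list.

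Both the labels and the arrays give male animals. The Y-linked genes Ddx3y, Eif2s3y, Kdm5d and Uty each had a probe well above background on all 4 arrays. Xist, the transcript of the inactive X chromosome, was at -4.84 and -5.96 (not detected) on the first pair of arrays, and at -4.85 and -3.88 on the metformin and APS plus metformin arrays, well above background but low. All 8 hepatocyte markers were well above background on all 4 arrays, and 0, 0, 1 and 1 of 4 kidney markers were. In whole tissue, fewer cells of a type and less RNA per cell cannot be told apart.

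Markers of other cells moved between the arrays on which the sulfotransferases differed. The summed level of 8 acinar pancreas markers, relative to the 75th percentile, was 55.2 on the natural aging array, where Sult2a1, Sult2a2 and Sult2a4 were lowest, and 4.20, 10.2 and 0.642 on the other arrays. All 8 were detected on the first 3 arrays, and 4 of 8 with APS plus metformin. The 5 lymphocyte markers summed to 1.78, 0.796, 3.95 and 0.913, with 4, 4, 5 and 4 detected, and the 6 matrix and stellate markers, all detected, to 21.7, 11.7, 24.2 and 16.7. The metformin array, where Sult3a1 was highest, had the highest sum of both lists. The 4 macrophage markers summed to 30.2, 20.2, 25.3 and 16.9, the 4 endothelial markers to 11.2, 7.34, 9.66 and 10.4, and the 4 cholangiocyte markers to 2.69, 1.88, 2.62 and 1.29, all detected on all arrays. The sum of the hepatocyte markers was 166.8, 128.1, 105.3 and 139.4, highest on the natural aging array. The part of these cells in the sulfotransferase differences was not tested.

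The genes with the most similar profile were looked for among about 14468 genes, by the root mean square distance between log2 profiles centred on their means, with dim values raised to the lowest level well above background. Over 4 points, or 3 where a flagged spot was left out, such a distance is a description of few values. Among the 5 nearest genes to Sult2a2 were Sult2a4 (0.57), Hamp (0.81), Mgst2 (0.91) and H19 (1.04) over 4 arrays. Among those to Sult2a1 were Sult2a2 (0.13), Sult2a4 (0.54), Hamp (0.61) and H19 (0.75) over 3 arrays. Hamp encodes the iron hormone hepcidin, Mgst2 a microsomal glutathione transferase, and H19 an imprinted RNA of fetal liver.

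The nearest profiles to Sult3a1 were those of Sult3a2 (0.81), Mgst2 (0.93), Cenpm (0.98), Dlk1 (1.005) and Igf2 (1.06) over 4 arrays. Dlk1 and Igf2 are imprinted genes of fetal growth, and Cenpm encodes a centromere protein. Sult1e1, over 3 arrays, lay nearest Tuba8 (0.17), Gm38832 (0.19), Ren2 (0.20), Cyp17a1 (0.29) and Cyp4a14 (0.39). Sult5a1 lay nearest Hoxd12 (0.18), D830031N03Rik (0.21), Chac1 (0.22), Olfr498 (0.23) and Gm16551 (0.30) over 4 arrays. Hoxd12, D830031N03Rik and Olfr498 were not detected on the aging diabetic and metformin arrays, while Chac1, a glutathione-degrading enzyme of the stress response, was detected on all 4.

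Each array had 59305 spots that were not controls, with 33668 to 37402 well above background, 0 saturated and between 1293 (APS plus metformin) and 3174 (metformin) flagged, and the 75th percentile of intensity lay between 2699.5 and 3589. Their number, 1 per group, limits every statement here.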

How the data were processed

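Liver RNA was measured on 4 one-colour (Cy5) arrays, 1 per group, all on 1 slide and read in 1 scan per the file headers. The deposited spot intensity had been background-subtracted and detrended by Agilent Feature Extraction, version 11.5.1.1 per the file headers and 10.7 per the submitters' processing notes. The deposited series table holds log2 values that the authors normalized by a method not stated in the sources used here; its column medians are 7.84 and each column's correlation with its own array is at least 0.999, so array and direction are settled and the method of scaling stays unknown. The flags and errors are Feature Extraction's, per the file headers.

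The log2 of each intensity was taken and the array's 75th percentile over all spots that were not controls subtracted, with Python 3.11.15, numpy 2.4.6 and pandas 2.3.3. Accessions were matched without version to RefSeq transcripts; 33767 probes matched and 22838 did not. Coordinates were used only for RefSeq promoters. A spot flagged for uneven pixels or as a population outlier was left out of the comparisons that need its array, and the probe was kept in the others. This was decided after flagged spots had been seen on these genes. For a gene with several usable probes, the one with the highest mean level stood for it in a comparison. Genes were counted at 2-fold (log2 1) where at least 1 array was well above background. Where 1 array only was, the difference is a bound, "at least N-fold": the dim array enters with its own level or with its lowest level well above background, whichever is higher. No test was possible.

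The genes, lists and tests were chosen with earlier results of these data known. All probes of the 10 genes are named; of the lists, those past 2-fold or the largest. Some genes that this rule names are not reported here. Cell type lists are given by sums and counts. The counting at 2-fold was checked on simulated data, with noise of the size of the image analysis error. Differences were planted only in brighter genes detected on both arrays. Bounds from dim spots, such as those of Sult2a2, Sult2a4 and Sult3a1, were not covered by that check, and neither was variation between animals. Alternatives were other scalings, background correction, probe rules, thresholds and the authors' log2 table (limma 3.58.1 in R 4.3.3 for normexp, offset 50).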

Additional observations from a re-analysis of the deposited data

How the results depend on the processing

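No paired analysis was possible because each group has 1 array and no test was run; for the same reason no replicate could be left out. Of the 25 gene differences past 2-fold, those of the treated arrays against natural aging included, none changed direction in an alternative that gave a value. The only ones that fell under 2-fold were of Sult2a8, in aging diabetic against natural aging (-0.92 with quantile normalization, -0.93 in the authors' series table), where the count of lower genes became 1 of 6, and in APS plus metformin against natural aging (-0.90 in both). In all, 8 of 48 differences changed sign in an alternative, each of them under 2-fold. With flagged spots kept, 4 of 9 genes were higher in aging diabetic than in natural aging (8.03% of all genes), 5 of 10 with APS plus metformin than in aging diabetic (4.41%) and 1 of 10 than with metformin alone (2.41%), and 1 of 10 was lower with metformin than in aging diabetic (3.39%). With detection required on all 4 arrays, which removes Sult2a2, Sult2a4 and Sult3a1, 0 of 4 genes were higher in the 3 comparisons with natural aging or aging diabetic (6.88%, 8.27% and 3.53% of all genes), and 0 of 4 were lower between the treated arrays (8.8%). Between the treated arrays 1 of 9 genes, Sult5a1, became higher with median scaling (1.03), which moved the median of all genes to 0.14, with the mean of detected probes (1.14) and at 1.5-fold; the shares of all genes were 3.72%, 2.42% and 8.75%. At 1.5-fold 1 of 7 was lower with metformin than in aging diabetic (9.42% of all genes). At 3-fold 1 of 6 was lower in aging diabetic than in natural aging (2.48%) and 0 of 9 between the treated arrays (4.72%). Leaving out a probe flagged on any array, an alternative added after the data were seen, gave no value for Sult1d1, Sult1e1 and Sult2a1 and the same 8 counts. Normexp was run on median signals (added later) and gave 5.20 and 3.66 for Sult3a1 against aging diabetic and, against natural aging, 5.28 and 3.75 for Sult3a1 and 6.24 and 6.41 for Sult2a1 (metformin first), with the mean-signal version not run. Dim signals limit the natural aging values of Sult2a1, Sult2a2, Sult2a4 and Sult3a1 to bounds.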
